A study of Mus musculus with 6 samples.

Results

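The urea transporters and aquaporins of the mouse uterus are described here as 10 genes, *Slc14a1*, *Slc14a2*, *Aqp1*, *Aqp2*, *Aqp3*, *Aqp4*, *Aqp5*, *Aqp8*, *Aqp9* and *Aqp11*, out of 56748 genes measured. They were taken by symbol, as both urea transporter genes and 8 aquaporin genes, and were chosen by their measured counts in control and *Gp130* ecKO uteri, with the difference between these already known. The differences between those groups below are therefore a description of the fitted values and no independent support for any of them. RNA of the whole uterus was sequenced from 6 females labelled C57BL/6 (C57BL/6J in the methods of the study), 3 controls and 3 *Gp130* ecKO, on day 4 of pregnancy at 1600 h, after mating with fertile wildtype males. The *Gp130* ecKO females were *Ltf* iCre/+;*Gp130* flox/flox, in which iCre under the lactotransferrin gene removes *Gp130* (*Il6st*), the shared receptor subunit for leukemia inhibitory factor and other interleukin 6 type cytokines, from the uterine epithelium. Control females are wildtype by their labels, and the methods of the study also allow *Ltf* +/+;*Gp130* flox/flox females as controls. The females were sexually mature, over 8 weeks of age. *Ltf* is also used by some immune cells, and stroma and muscle keep the gene. Each library is labelled as a separate uterus, and nothing more is said of litters or collection days, so p-values measure the spread between these uteri.

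Aquaporins are membrane channels that form tetramers and let water pass along an osmotic gradient, and the aquaglyceroporins *Aqp3* and *Aqp9* also pass glycerol and other small solutes. SLC14A1 (urea transporter B) and SLC14A2 (urea transporter A) are channels for urea, and they are best known from red blood cells, blood vessels of the kidney and the collecting duct. In the rodent uterus around implantation, fluid is taken up from the lumen and the walls close around the blastocyst, and aquaporins of the epithelium, vessels and muscle have been studied for their part in this movement of water.

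Total expected counts ranged from 13960748 in control 3 to 25906443 in control 2. Values are given as CPM, counts relative to the library size scaled by the TMM method of edgeR. Of all genes, 16605 passed edgeR's filter on low counts and 26 were called at an FDR under 0.05 with more than a 2-fold change by its quasi-likelihood test. The targeted gene *Il6st* measured 631, 678 and 452 CPM in control uteri 1 to 3 against 388, 349.8 and 362 CPM in *Gp130* ecKO uteri 1 to 3, so that the groups did not overlap in RNA that includes cells outside the epithelium. The fitted log2 fold change of −0.68 had a standard error of 0.21 and an adjusted p of 0.120 (edgeR's quasi-likelihood test). On the first axis of a multidimensional scaling, control 2 lay at 0.03, between controls 1 and 3 at 2.09 and 2.08 and the *Gp130* ecKO uteri at −1.47 to −1.32. Muscle markers were present in all the uteri, with the summed CPM of 5 myometrial genes between 339 and 2209, in libraries that the design text describes as endometrium. With 3 uteri in each group, 0.1 is the smallest two-sided p that an exact permutation test allows.

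Among the 10 genes, 5 passed the filter (*Slc14a1*, *Aqp8*, *Aqp11*, *Aqp5* and *Aqp1*) and 5 had too few counts to pass it (*Slc14a2*, *Aqp2*, *Aqp3*, *Aqp4* and *Aqp9*). *Slc14a1* was the 1 member called, and it was higher in *Gp130* ecKO. Over all 16605 tested genes, 0.157% were called and 0.126% were called higher. *Slc14a1*, *Aqp8* and *Aqp11* were higher in every *Gp130* ecKO uterus than in any control uterus, which held for 15.7% of all tested genes. *Aqp5* and *Aqp1* overlapped between the groups. The median log2 fold change of the 5 tested members was 1.43, beside −0.05 over all tested genes. All 5 had their lowest value of the 6 uteri in control 3, which was also the library with the fewest counts. The share of all tested genes that were lowest in control 3 was not counted, so this describes the members only.

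**Figure D1:**
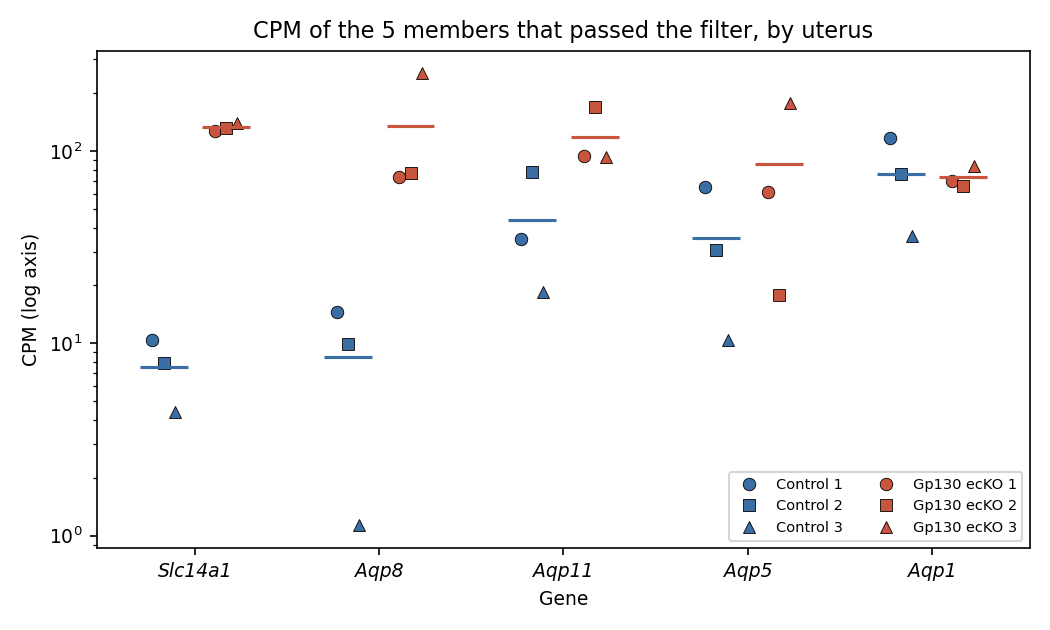
CPM (counts relative to the TMM-scaled library size, log axis) of the 5 members that passed the filter. Each point is 1 uterus, blue for control and red for *Gp130* ecKO, and the lines are group means (3 uteri each). The *Gp130* ecKO points of *Slc14a1* lie together at 127 to 139.8 CPM, while those of *Aqp8* and *Aqp5* reach 253 and 177 CPM in *Gp130* ecKO 3.

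*Slc14a1* (ENSMUSG00000059336), the gene of urea transporter B, lies on chromosome 18 of GRCm39 from 78143306 to 78185343 on the minus strand. It measured 10.4, 7.91 and 4.40 CPM in control uteri 1 to 3 against 127, 132 and 139.8 CPM in *Gp130* ecKO uteri 1 to 3. These values rest on rounded expected counts of 256, 205 and 66 in the controls and 2812, 3430 and 3373 in *Gp130* ecKO. The *Gp130* ecKO uteri were nearly level with each other, 1.10-fold from the lowest to the highest, and the controls spread over 2.35-fold. The lowest *Gp130* ecKO uterus was 12.3-fold above the highest control. The means were 7.55 ± 2.99 CPM in control and 133 ± 6.41 CPM in *Gp130* ecKO (SD, n = 3 each). The log2 fold change was 4.13 (standard error 0.32, 95% interval 3.38 to 4.87, adjusted p = 0.0206, edgeR's quasi-likelihood test). Of all tested genes it had the smallest p, while its rank by the absolute log2 fold change was 50. The call was lost with *Gp130* ecKO 2 left out (log2 fold change 4.14, adjusted p = 0.0554) and with *Gp130* ecKO 3 left out (4.11, adjusted p = 0.107), with little change in the fold change itself.

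*Slc14a2*, the gene of urea transporter A of the renal collecting duct, lies 4020 bp from *Slc14a1* on the same strand. It had counts of 5, 0 and 0 in control uteri 1 to 3 and of 0, 1 and 0 in *Gp130* ecKO uteri 1 to 3. A count of 0 allows up to 3 counts, or 0.115 to 0.200 CPM in these libraries. The pair of neighbouring urea transporter genes was thus unequal in both groups, and in *Gp130* ecKO the reads of the locus were those of *Slc14a1*. No 75-base stretch of the *Slc14a1* transcripts was found in a transcript of another gene on the same strand, and 2.96% of them matched a gene on the opposite strand, which counting without strand could not tell from it.

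Among the aquaporins, *Aqp8*, *Aqp11* and *Aqp5* had higher group means in *Gp130* ecKO and *Aqp1* did not, and none was called. Of the 4 tested, 0 were called by edgeR's quasi-likelihood test, 2 (*Aqp8* and *Aqp11*) had an unadjusted p under 0.05, 1 (*Aqp8*) was called by edgeR's exact test and 2 were called by DESeq2. Over all tested genes the same 4 rules took 0.157%, 25.0%, 7.54% and 9.31%, in that order.

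*Aqp8* (ENSMUSG00000030762, chromosome 7, 123061514 to 123067227, plus strand) encodes a channel for water that also passes ammonia and hydrogen peroxide. It measured 14.5, 9.95 and 1.13 CPM in controls 1, 2 and 3, from 358, 258 and 17 counts. *Gp130* ecKO uteri 1 to 3 gave 73.3, 77.1 and 253 CPM, from 1621, 2006 and 6114 counts. The lowest *Gp130* ecKO uterus exceeded the highest control by 5.06-fold, but control 3 and *Gp130* ecKO 3 stood far from the others of their groups. The means were 8.52 ± 6.79 CPM in control and 135 ± 103 CPM in *Gp130* ecKO (SD, n = 3 each). The log2 fold change of 3.96 was close to that of *Slc14a1*, with a standard error of 0.89 in place of 0.32 (95% interval 1.89 to 6.04, adjusted p = 0.0820, edgeR's quasi-likelihood test). It was 3.15 to 4.58 with a single uterus left out. The adjusted p was 0.00125 with the exact test, 9.28e-04 with the likelihood ratio test and 2.31e-05 with DESeq2.

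*Aqp11* (ENSMUSG00000042797, chromosome 7, 97373213 to 97387524, minus strand) encodes a channel found on membranes inside the cell. It measured 35.0, 78.1 and 18.5 CPM in control uteri 1 to 3 against 94.6, 169 and 92.6 CPM in *Gp130* ecKO uteri 1 to 3. The uterus numbered 2 was the highest of each group, and the lowest *Gp130* ecKO value was 1.19-fold above the highest control. The means were 43.9 ± 30.8 and 119 ± 43.5 CPM (SD, n = 3 each). The log2 fold change was 1.43 (standard error 0.51, 95% interval 0.24 to 2.63, adjusted p = 0.149, edgeR's quasi-likelihood test). Without control 2, the uterus between the groups on the scaling, it was 2.18 with an adjusted p of 0.0379.

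**Figure D2:**
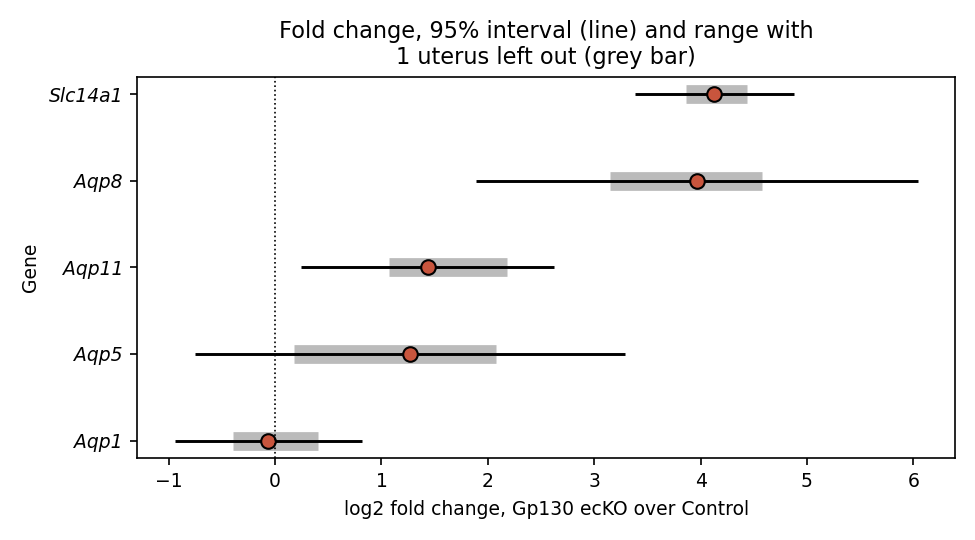
Log2 fold change of *Gp130* ecKO over control for the 5 tested members (points), with the 95% interval of edgeR's fit (lines) and the range when 1 of the 6 uteri was left out (grey bars). The intervals of *Slc14a1*, *Aqp8* and *Aqp11* lie above 0, those of *Aqp5* and *Aqp1* hold 0, and the *Slc14a1* interval is the shortest.

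The 250 bases before the transcription start of *Aqp8* and *Aqp11* are shown because these were the tested aquaporins whose groups did not overlap. They were read from GRCm39 at chr7:123061264-123061513 on the plus strand and chr7:97387525-97387774 on the minus strand, in the direction of transcription. Neither window holds an annotated exon of its own gene, and exons of other genes were not looked for. Capitals mark the letters GGTCA or, on the other strand, TGACC, the half-site of an estrogen response element.
*Aqp8*: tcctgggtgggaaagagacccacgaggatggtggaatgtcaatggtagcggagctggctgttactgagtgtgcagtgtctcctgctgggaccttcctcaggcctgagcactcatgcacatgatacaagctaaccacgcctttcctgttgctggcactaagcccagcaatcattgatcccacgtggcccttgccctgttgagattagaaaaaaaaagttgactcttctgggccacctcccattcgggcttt
*Aqp11*: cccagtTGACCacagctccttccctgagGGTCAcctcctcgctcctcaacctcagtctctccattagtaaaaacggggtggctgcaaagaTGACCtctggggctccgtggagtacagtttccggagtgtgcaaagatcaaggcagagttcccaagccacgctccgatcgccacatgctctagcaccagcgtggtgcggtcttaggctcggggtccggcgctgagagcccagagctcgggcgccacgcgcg
The half-site was found 3 times before *Aqp11*, starting 244, 222 and 160 bases before the start, and not before *Aqp8*, *Aqp5* or *Aqp1*. At least 1 half-site was found in 34.1% of 21770 promoters of the same length. A match of 5 letters is frequent and describes the sequence only. None of these 4 windows held the STAT motif TTCNNNGAA (in 7.70% of all promoters), the AP-1 motif TGANTCA (6.17%), the cyclic AMP response element TGACGTCA (1.69%) or TATAAA (11.9%), searched on both strands. The 4 windows differed in composition: 53.2% of bases were G or C before *Aqp8*, equal to the median of all promoters, 59.2% before *Aqp1*, 61.6% before *Aqp11* and 67.2% before *Aqp5*. There were 3 CpG dinucleotides before *Aqp1*, 5 before *Aqp8*, 17 before *Aqp11* and 22 before *Aqp5*.

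*Aqp5* (ENSMUSG00000044217, chromosome 15, 99488532 to 99492710, plus strand), the water channel of the apical membrane in secretory glands, measured 65.1, 30.6 and 10.4 CPM in controls 1, 2 and 3. In *Gp130* ecKO uteri 1 to 3 it measured 61.3, 17.9 and 177 CPM. *Gp130* ecKO 1 and 2 lay within the range of the controls, and *Gp130* ecKO 3 alone lay above it. The log2 fold change was 1.27 (standard error 0.86, 95% interval −0.75 to 3.29, adjusted p = 0.385, edgeR's quasi-likelihood test). It was 0.18 without *Gp130* ecKO 3 and 2.08 without control 1, so the value rests on single uteri. Of its 75-base stretches, 7.96% were shared with a gene on the opposite strand.

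*Aqp1* (ENSMUSG00000004655, chromosome 6, 55313068 to 55325540, plus strand), the water channel of blood vessel endothelium and red blood cells, measured 116, 75.7 and 36.2 CPM in control uteri 1 to 3 against 69.8, 65.6 and 83.3 CPM in *Gp130* ecKO uteri 1 to 3. All the *Gp130* ecKO uteri lay within the range of the controls. The log2 fold change was −0.06 (standard error 0.38, 95% interval −0.94 to 0.82, adjusted p = 0.926, edgeR's quasi-likelihood test), an interval that covers changes of nearly 2-fold in either direction. It turned to 0.40 without control 1 and to 0.01 without *Gp130* ecKO 2.

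The other aquaporins were near the limit of counting in whole uterus. *Aqp3*, an aquaglyceroporin, had 3, 10 and 8 counts in control uteri 1 to 3 and 47, 5 and 6 in *Gp130* ecKO uteri 1 to 3, so *Gp130* ecKO 1 alone was high at 2.12 CPM. *Aqp9*, the aquaglyceroporin of liver and leukocytes, had 5, 10 and 12 counts in the controls and 1, 2 and 2 in *Gp130* ecKO, every one below the controls. *Aqp4*, the main water channel of astrocytes, had 0, 8 and 1 counts in the controls and 3, 23 and 11 in *Gp130* ecKO. *Aqp2*, the vasopressin-regulated channel of the collecting duct, had no count in any control and 10, 1 and 2 counts in *Gp130* ecKO. It lies 3516 bp before *Aqp5* on the same strand. Of these counts in *Aqp2*, *Aqp3* and *Aqp4*, none reached 1 CPM except *Aqp3* in *Gp130* ecKO 1. The remaining aquaporin genes *Mip*, *Aqp6*, *Aqp7* and *Aqp12* summed to at most 0.133 CPM in any uterus.

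**Figure D3:**
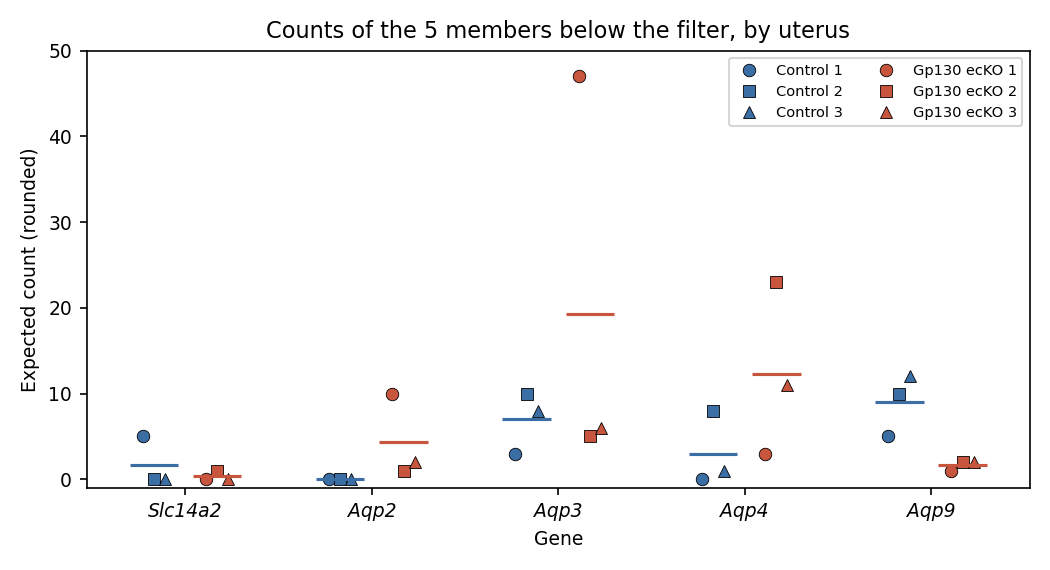
Rounded expected counts of the 5 members that did not pass the filter. Each point is 1 uterus, blue for control and red for *Gp130* ecKO, and the lines are group means (3 uteri each). *Aqp3* is high in *Gp130* ecKO 1 with 47 counts, and the *Aqp9* points of *Gp130* ecKO all lie below those of the controls.

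Levels of different genes were compared on the deposited TPM, which is scaled by length. In control uteri *Aqp11* (43.5 ± 27.8 TPM), *Aqp1* (38.1 ± 18.3) and *Aqp5* (36.0 ± 25.4) were followed by *Aqp8* (8.02 ± 6.23) and *Slc14a1* (2.80 ± 0.86; SD, n = 3 each). Each gene in this order overlapped the next. In *Gp130* ecKO the order was *Aqp8* (132 ± 86.4 TPM), *Aqp11* (112 ± 48.8), *Aqp5* (95.7 ± 86.3), *Slc14a1* (58.8 ± 4.54) and *Aqp1* (39.03 ± 1.19), and the sole neighbours without overlap were *Slc14a1* and *Aqp1*. *Slc14a1* therefore stood below *Aqp1* in every control uterus, at a TPM ratio of 0.0634, 0.0769 and 0.0951, and above it in every *Gp130* ecKO uterus, at 1.54, 1.64 and 1.35. The deposited FPKM gave the same order in both groups.

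The TPM of the 8 aquaporins summed to 168, 155 and 55.6 in control uteri 1 to 3 against 274, 318 and 549 in *Gp130* ecKO uteri 1 to 3. *Aqp8* made up 8.05%, 5.97% and 2.27% of this sum in the controls and 28.0%, 27.7% and 42.2% in *Gp130* ecKO. The share of *Aqp1* was 33.4%, 24.8% and 35.4% in the controls and 13.9%, 12.2% and 7.35% in *Gp130* ecKO. The composition therefore differed in each *Gp130* ecKO uterus, with *Aqp11* leading in *Gp130* ecKO 1 and 2 and *Aqp8* in *Gp130* ecKO 3.

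**Figure D4:**
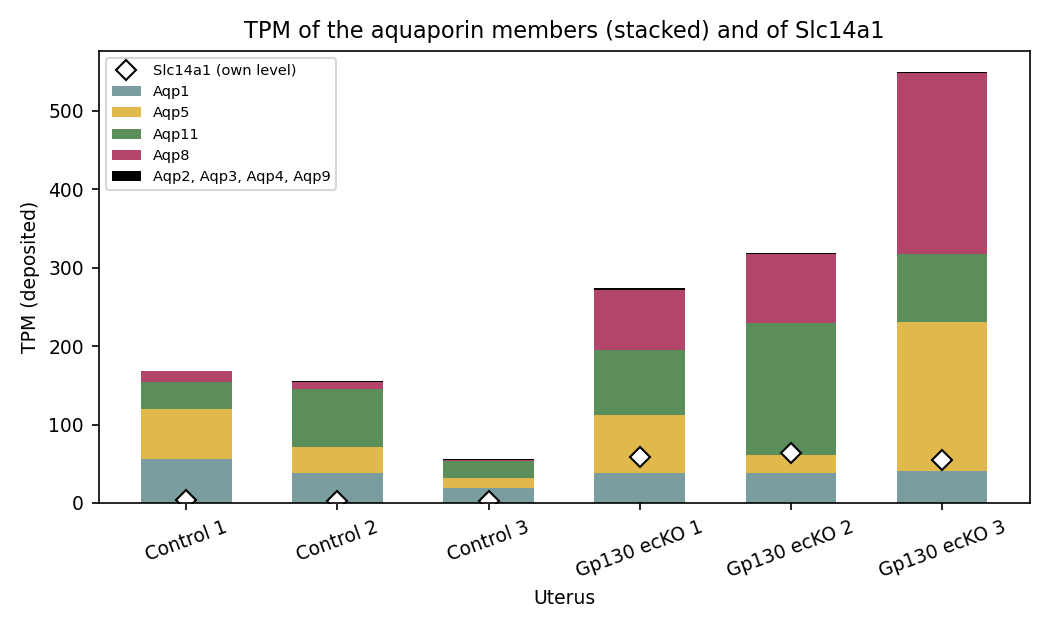
Deposited TPM of the 8 aquaporin members stacked for each uterus (linear axis from 0), with the TPM of *Slc14a1* as a diamond at its own level. The stack is higher in the *Gp130* ecKO uteri, 274 to 549 TPM beside 55.6 to 168 TPM, and the *Aqp8* part is larger in each of them, while the diamonds of *Gp130* ecKO lie between 54.5 and 63.5 TPM.

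In RNA of a whole organ, fewer cells of a type and less RNA per cell cannot be told apart, so markers of the cell types were measured beside the members. The summed CPM of 5 epithelial markers (*Epcam*, *Cdh1*, *Krt8*, *Krt18* and *Krt19*) was 2450, 2602 and 1705 in control uteri 1 to 3 against 5101, 3801 and 3964 in *Gp130* ecKO uteri 1 to 3, with 4 of 5 higher on average. Their log2 fold changes were −0.19 for *Epcam*, 0.66 for *Cdh1*, 0.74 for *Krt18*, 1.32 for *Krt8* and 2.19 for *Krt19*. The study also reported more KRT8 and CDH1 protein in the *Gp130* ecKO epithelium. Shares of the sum therefore depend on the markers chosen, and the sum may reflect more than the amount of epithelium. *Slc14a1* was 0.423%, 0.304% and 0.258% of that sum in the controls and 2.49%, 3.47% and 3.53% in *Gp130* ecKO, a 9.64-fold difference of the means. For *Aqp8* the same shares were 0.591%, 0.382% and 0.0665% in the controls and 1.44%, 2.03% and 6.39% in *Gp130* ecKO, a 9.48-fold difference. *Slc14a1* and *Aqp8* thus differed by more than the epithelial sum did, and the groups stayed apart on this scale. For *Aqp11* the shares were 1.43%, 3.00% and 1.08% in the controls and 1.86%, 4.45% and 2.34% in *Gp130* ecKO. This was a 1.57-fold difference of the means, and the groups of *Aqp11* overlapped on this scale. The cells in which these genes were transcribed were not identified.

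*Aqp1* moved otherwise. The summed CPM of 5 endothelial markers (*Pecam1*, *Cdh5*, *Kdr*, *Tek* and *Emcn*) was 820, 576 and 342 in control uteri 1 to 3 against 185, 332 and 264 in *Gp130* ecKO uteri 1 to 3, and 0 of 5 had a log2 fold change above 0. *Aqp1* was 14.2%, 13.1% and 10.6% of this sum in the controls and 37.7%, 19.8% and 31.6% in *Gp130* ecKO, so that the groups, which overlapped in CPM, did not overlap relative to these markers. The direction depended on the markers, since *Aqp1* was 4.75%, 2.91% and 2.12% of the epithelial sum in the controls and 1.37%, 1.72% and 2.10% in *Gp130* ecKO, lower in each, and relative to the myometrial sum the groups overlapped. The 5 stromal markers summed to 1551 to 1573 CPM in the controls and 634 to 1037 CPM in *Gp130* ecKO. The myometrial sum was highest in *Gp130* ecKO 3 (2209 CPM) and lowest in *Gp130* ecKO 1 (339 CPM).

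Red blood cells, which carry urea transporter B and *Aqp1*, left 250, 129 and 231 CPM of 6 erythroid genes in control uteri 1 to 3, against 46.9, 236 and 35.5 CPM in *Gp130* ecKO uteri 1 to 3. *Gp130* ecKO 1 and 3, with the lowest erythroid sums, had 127 and 139.8 CPM of *Slc14a1* beside 132 CPM in *Gp130* ecKO 2. The erythroid sum came mostly from globin genes, and *Alas2* in the same list went the other way. Its log2 fold change was 0.695 (adjusted p = 0.244, edgeR's quasi-likelihood test), with overlap between the groups. In *Gp130* ecKO uteri 1 to 3 *Alas2* measured 4.84, 8.54 and 8.21 CPM. The erythroid membrane gene *Slc4a1* was at most 0.231 CPM. The 5 neutrophil genes, of cells that use *Aqp9*, summed to 5.95, 4.13 and 2.07 CPM in control uteri, against 0.633, 2.35 and 3.61 CPM in *Gp130* ecKO uteri. *Ly6g* carried most of the sum in *Gp130* ecKO 2 and 3 (2.19 and 2.61 CPM), while *S100a8* (log2 fold change −3.24, adjusted p = 0.0745), *S100a9* (−3.42, adjusted p = 0.106) and *Mpo* (not tested) were below every control in each *Gp130* ecKO uterus, as *Aqp9* was, and *Elane* was at 0. *Ovgp1*, used as a marker of oviduct, was 47.9, 85.3 and 50.6 CPM in control uteri, against 615, 1193 and 552 CPM in *Gp130* ecKO uteri (log2 fold change 3.68, adjusted p = 0.0377, edgeR's quasi-likelihood test). The ciliated-cell marker *Foxj1* was 0.445, 0.540 and 0.200 CPM in control uteri, against 1.72, 0.423 and 3.32 CPM in *Gp130* ecKO uteri. Its groups overlapped, with a log2 fold change of 2.11 (adjusted p = 0.160, edgeR's quasi-likelihood test). The 5 gland genes (*Foxa2*, *Prss28*, *Prss29*, *Spink1* and *Lif*) summed to 1050, 153 and 112 CPM in control uteri, against 8711, 180 and 147 CPM in *Gp130* ecKO uteri, mostly from *Prss28* and *Prss29* in *Gp130* ecKO 1. *Aqp5* and *Aqp8* were highest in *Gp130* ecKO 3. The gland gene *Foxa2* was also highest there, at 25.0, 11.5 and 43.4 CPM in *Gp130* ecKO uteri 1 to 3. In control uteri 1 to 3 it was 16.3, 39.3 and 10.8 CPM. Within *Gp130* ecKO, *Spink1* was highest in uterus 1 and *Lif* in uterus 2. The 4 macrophage genes summed to 82.5 to 121 CPM in control and 55.3 to 108 CPM in *Gp130* ecKO. The part of these cell types in the differences of the members was not tested.

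**Figure D5:**
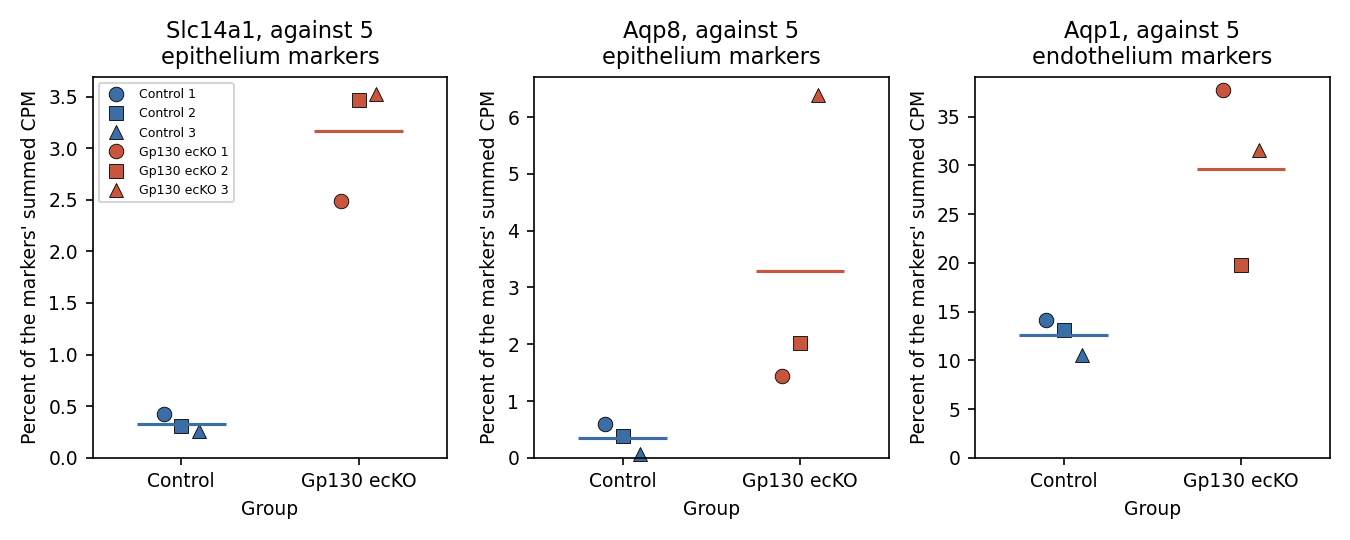
CPM of *Slc14a1* and *Aqp8* as a percent of the summed CPM of 5 epithelial markers, and of *Aqp1* as a percent of 5 endothelial markers (linear axes from 0). Points are uteri and lines are group means (3 uteri each). The groups lie apart in all the panels, with *Slc14a1* at 0.258% to 0.423% in control and 2.49% to 3.53% in *Gp130* ecKO, and *Aqp1* is higher in *Gp130* ecKO against the endothelial markers but lower against the epithelial ones, which are not drawn for it.

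Other genes of water, urea and solute handling were followed in 9 lists of 63 genes, of which 47 were tested. Of these 47, 0 were called by edgeR's quasi-likelihood test, 19 had an unadjusted p under 0.05 (40.4%, beside 25.0% of all tested genes), 7 were called by the exact test (14.9%, beside 7.54%) and 8 by DESeq2 (17.0%, beside 9.31%). In 10 of them all the *Gp130* ecKO uteri exceeded all the controls (21.3%, beside 15.7% of all tested genes) and in 4 they were all lower (8.51%, beside 15.6%). The log2 fold change was above 0 in 28 of 47, beside 47.1% of all tested genes.

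Genes on the urea side were followed in a list of arginine and urea metabolism, of which 7 of 11 were tested, with a median log2 fold change of −0.13. *Slc7a2*, a transporter that brings arginine into the cell, measured 14.4, 23.9 and 45.6 CPM in control uteri, against 6.60, 15.2 and 7.50 CPM in *Gp130* ecKO uteri (log2 fold change −1.51, adjusted p = 0.129), with overlap between the groups. The urea cycle gene *Otc* was at 0 counts in all 6 uteri and *Cps1* at no more than 0.0809 CPM. The 3 ammonia channel genes *Rhag*, *Rhbg* and *Rhcg* summed to at most 0.949 CPM in any uterus and were not tested.

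Glycerol, the solute of the aquaglyceroporins, was followed in 8 genes, all tested, with a median log2 fold change of 0.85. In 7 of the 8 it was above 0, beside 47.1% of all tested genes. *Gk*, the glycerol kinase, measured 6.11, 8.33 and 6.27 CPM in control uteri 1 to 3 against 30.4, 28.6 and 15.0 CPM in *Gp130* ecKO uteri 1 to 3 (log2 fold change 1.83, adjusted p = 0.0635). *Gpd1*, which makes glycerol 3-phosphate, overlapped between the groups (1.45, adjusted p = 0.180). Transcripts of the aquaglyceroporins themselves, *Aqp3*, *Aqp7* and *Aqp9*, did not exceed 2.12 CPM in the same uteri.

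The osmotic response list had 9 of 10 genes tested and a median log2 fold change of 0.16. *Sgk1*, the kinase that raises channels at the membrane, measured 69.8, 68.5 and 25.1 CPM in control uteri 1 to 3 against 161, 478 and 518 CPM in *Gp130* ecKO uteri 1 to 3 (log2 fold change 2.82, adjusted p = 0.0677), and *Stk39*, a kinase of cotransporters, had 0.68 (adjusted p = 0.161). *Slc5a11*, a carrier of myo-inositol 189038 bp from *Aqp8*, overlapped fully (−0.04, adjusted p = 0.967). Among 9 genes of volume-regulated channels and the swelling response, the channel subunit *Lrrc8b* measured 62.1, 10.4 and 86.6 CPM in control uteri, against 9.77, 10.2 and 7.01 CPM in *Gp130* ecKO uteri (−2.56, adjusted p = 0.0977), so that control 2 was nearly level with *Gp130* ecKO. The subunit *Lrrc8c* measured 36.5, 25.3 and 23.6 CPM in control uteri, against 6.47, 15.8 and 14.01 CPM in *Gp130* ecKO uteri (−1.23, adjusted p = 0.113). Of the sodium pump and chloride cotransport list (9 of 10 tested, median −0.03), the pump subunit *Atp1b1* had a log2 fold change of 1.21 (adjusted p = 0.190) and the scaffold *Nherf1* of 0.64 (adjusted p = 0.248). Among the channels of luminal fluid, the sodium channel subunit *Scnn1a* measured 7.89, 21.2 and 4.33 CPM in control uteri, against 71.0, 55.1 and 30.5 CPM in *Gp130* ecKO uteri (2.22, adjusted p = 0.0980), and the chloride channel *Cftr* had a log2 fold change of 1.10 (adjusted p = 0.124). The other subunits of the sodium channel had lower means in *Gp130* ecKO, with *Scnn1b* at −0.82 (adjusted p = 0.435) and overlapping between the groups, and *Scnn1g*, too low to be tested, at 0.154 to 0.324 CPM in control and 0 to 0.0769 CPM in *Gp130* ecKO. The receptors for vasopressin and oxytocin were low, with *Oxtr* at 0.56 (adjusted p = 0.680) and *Avpr1a* at −0.31 (adjusted p = 0.807) and *Avpr2*, the receptor that moves *Aqp2* to the membrane in kidney, at no more than 0.333 CPM. The adjusted p values of these lists are from edgeR's quasi-likelihood test over all tested genes.

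Genes most like *Slc14a1* across the 6 uteri, by Pearson's r of log2(CPM + 0.5) among 14762 genes with a mean of at least 1 CPM, were *Slc33a1* (r = 0.995), an acetyl-CoA transporter, *Inpp5j* (0.990), an inositol phosphatase, *Tm7sf2* (0.989), a sterol reductase, and *Nudt12* (0.987), a nucleotide hydrolase. They shared its flat level within *Gp130* ecKO but not its size, since their log2 fold changes were 0.56, 1.52, 1.23 and 1.04 beside 4.13. For *Aqp8* they were *Naaladl2* (0.998), *Bcl2l13* (0.992), *Erln* (0.990), *Spred1* (0.989) and *Cryzl1* (0.989), with log2 fold changes of 0.38 to 1.89 beside 3.96. Among the members, r with *Slc14a1* was 0.934 for *Aqp8*, 0.820 for *Aqp11*, 0.496 for *Aqp5* and 0.244 for *Aqp1*. The points are the same 6 libraries in 2 groups and share their depth and scaling, so these values describe likeness only.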

How the data were processed

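The authors made 1 RSEM gene table per uterus from strand-specific poly(A) libraries of whole uteri, read as single reads of 75 bp. Reads were trimmed (fastp 0.23.2), cleared of ribosomal RNA, mapped to GRCm39 (STAR 2.7.10a) and counted per gene (RSEM 1.3.3), with versions per the submitters' processing notes. The annotation version and the strand setting of the counting are not given in the sources used here. The deposited expected counts are not normalized, and RSEM divides a read shared by several genes between them. The deposited TPM values and the deposited FPKM values carry the authors' scaling by length and depth and served for levels between genes, not for tests.

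Expected counts were rounded to whole numbers, filtered with filterByExpr (16605 of 56748 genes), scaled by TMM and compared with edgeR 4.0.16 in R 4.3.3 (glmQLFit without the legacy form, glmQLFTest), 3 control against 3 *Gp130* ecKO uteri, with Benjamini-Hochberg adjustment over all tested genes. Calls required an FDR under 0.05 with a change above 2-fold. The standard error of a log2 fold change is its size over the root of its F value. Alternatives were the legacy form, the exact and likelihood ratio tests, DESeq2 1.42.0, other scalings, filters and thresholds, counts left unrounded, a block for the replicate number, and leaving out each uterus. Total counts per uterus ranged from 13960748 to 25906443. Intervals and floors cover counting error or the spread of these uteri only. The named genes are all members, the target gene, the called genes of each list of related genes or else the 2 with the largest change, and the 5 genes most like *Slc14a1* and *Aqp8*, and some genes that these rules name are not reported here. The members and lists were chosen with earlier results of these data known, and the marker ratios, the neighbour genes and further genes of the lists after their values were seen. On simulated data with 200 genes changed by 4-fold among 16605, the test of *Gp130* ecKO against control called 142 of them and 11 unchanged genes. Gene names and promoters were read from GENCODE M39 (GRCm39), where 56017 of the 56748 identifiers were found. Shared stretches were 75-base words of its transcripts.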

Additional observations from a re-analysis of the deposited data

How the results depend on the processing

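*Slc14a1* kept its direction under all 16 alternatives, with a log2 fold change of 3.86 to 4.44, and lost its call without *Gp130* ecKO 2 or without *Gp130* ecKO 3 (adjusted p = 0.0554 and 0.107). The number of members called was 1, or 2 with the exact test, the likelihood ratio test and an FDR under 0.1, and 3 with DESeq2. It was 0 to 2 with a uterus left out, 0 without *Gp130* ecKO 2 or 3, and 2 without control 2, where *Aqp11* was added. *Aqp8* kept its direction throughout (3.15 to 4.58) as did *Aqp11* (1.07 to 2.18) and *Aqp5* (0.18 to 2.08). The number of genes called was 26, and 7 with the legacy form, 1252 with the exact test, 1317 with the likelihood ratio test, 1546 with DESeq2, 105 with no filter, 856 at an FDR under 0.1 and 1 to 897 with a uterus left out (897 without control 2). Upper quartile scaling set the median of all genes at −0.11, beside −0.05 with TMM. Deviations of same-numbered uteri from their group means had r of 0.10, 0.07 and −0.20. Other combinations of a control and a *Gp130* ecKO uterus had r of −0.31 to 0.22. With 3 uteri in each group, these values cannot decide whether the numbers pair the samples. With the replicate number as a block, 6 genes and 1 member were called, *Slc14a1* had a log2 fold change of 4.19 (adjusted p = 0.0425), *Aqp8* an adjusted p of 0.132, and *Aqp1* changed sign to 0.071, as it did without control 1 (0.40) and without *Gp130* ecKO 2 (0.012), over a range of −0.40 to 0.40. The cause of these changes was not tested. Depth limits *Slc14a2*, *Aqp2*, *Aqp3*, *Aqp4* and *Aqp9*, which were tested only without the filter (adjusted p of 0.149 to 0.604).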

Other observations

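The length that RSEM estimates for a gene from the mix of its transcripts differed for *Slc14a1*. It was 3665, 3537 and 3328 bases in controls 1, 2 and 3 and 3095, 3204 and 3250 bases in *Gp130* ecKO 1, 2 and 3, shorter in every *Gp130* ecKO uterus, over 3 transcripts. In the controls it rests on 66 to 256 counts. Of 13575 tested genes with several transcripts, 9.40% were shorter in every *Gp130* ecKO uterus, so the pattern is not rare, and the deposited values do not show which transcript changed. In GENCODE M39 the transcripts of *Slc14a1* are 3605, 3665 and 3870 bases long, so the annotation behind the deposited lengths differs from it. The stretches shared between genes were read from M39.

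Of 36 other tested genes within 200 kb of a member, 9 were above every control in each *Gp130* ecKO uterus and 4 were below (15.7% and 15.6% of all tested genes). By edgeR's quasi-likelihood test 0 were called, 13 had an unadjusted p under 0.05 (25.0% of all tested genes did), and 6 each were called by the exact test and DESeq2 (7.54% and 9.31% of all tested genes). Those named here were picked after their values were seen. Beside *Slc14a1*, *Epg5* at 65066 bp measured 12.4, 16.0 and 14.8 CPM in control uteri 1 to 3 against 30.6, 27.1 and 19.5 CPM in *Gp130* ecKO uteri 1 to 3 (log2 fold change 0.84, adjusted p = 0.110, edgeR's quasi-likelihood test), and *Pstpip2* at 171839 bp overlapped (−2.39, adjusted p = 0.134). Beside *Aqp8*, *Zkscan2* at 7380 bp had a log2 fold change of 2.27 (adjusted p = 0.0953) at 0.202 to 2.08 CPM. Beside *Aqp5* and *Aqp2*, *Faim2* measured 1.74, 1.00 and 0.40 CPM in control uteri, against 5.70, 2.08 and 14.3 CPM in *Gp130* ecKO uteri, with the same order of the uteri within each group as *Aqp5* (2.75, adjusted p = 0.110). Beside *Aqp11*, *Clns1a* at 2487 bp, which codes for a chloride channel regulator, was lower in every *Gp130* ecKO uterus (−0.23, adjusted p = 0.333). No test was made of a relation between a member and its neighbour.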
